A study of Mus musculus with 8 samples.

Results

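Matrix metalloproteinases and the tissue inhibitors that restrain them were examined in RNA from whole mouse mammary glands. The genes comprised 7 proteases (Mmp2, Mmp3, Mmp9, Mmp11, Mmp13, Mmp14 and Mmp19) and 3 inhibitors (Timp1, Timp2 and Timp3), which were picked by name, and all 10 were found among the 51789 genes of the count table. Female, immunocompetent C57BL/6 mice (the methods list an albino strain, B6(Cg)-Tyrc-2J/J) had received an injection of small extracellular vesicles (sEVs) in the abdominal mammary gland some weeks before the tissue was taken, and their age was not stated. Glands of the sEV HYP group (2 libraries) were exposed to vesicles that AT3 cells released in hypoxia. AT3 is a metastatic mouse mammary adenocarcinoma line, so the vesicles came from 1 cell line. Glands of the sEV NORM group (3 libraries) received vesicles of the same cells kept in normoxia, and glands of the sEV CTRL group (3 libraries) received a preparation from medium in which no cells had grown. The study asked what the vesicles did to the gland, and its whole-gland RNA is a mixture of fat, stroma, epithelium, vessels and immune cells. In such bulk RNA, fewer cells of a type and less RNA per cell cannot be told apart.

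Matrix metalloproteinases are zinc-dependent enzymes that cut collagens, laminins and other proteins of the extracellular matrix. Most are secreted as inactive precursors and become active once a propeptide is removed, and tissue inhibitors of metalloproteinases (TIMPs) block the active site by binding to it. In the mammary gland, the proteases and their inhibitors are known for their part in the branching of ducts, in the removal of the epithelium after lactation and in the invasion of the surrounding stroma by tumors.

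Mmp3 and Mmp13 belong to the metalloproteinase gene cluster of chromosome 9. Of the 7 member promoters searched, theirs were the ones with an exact match to TGAGTCA. The AP-1 transcription factors (Fos and Jun) are known to bind these letters. The 100 bases before the start of each gene are shown 5′ to 3′, from RefSeq on GRCm38.p6, with the match in capitals. In the Mmp3 promoter (chr9:7445722-7445821, plus strand), the letters read TGAGTCA and end 40 bases before the start. In the Mmp13 promoter (chr9:7272414-7272513, plus strand), the match is on the opposite strand, reads TGACTCA and ends 29 bases before the start.

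Mmp3: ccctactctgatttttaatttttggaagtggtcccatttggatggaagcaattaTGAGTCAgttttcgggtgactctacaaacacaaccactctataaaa

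Mmp13: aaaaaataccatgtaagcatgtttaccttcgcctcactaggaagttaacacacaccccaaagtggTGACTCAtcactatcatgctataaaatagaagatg

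TGAGTCA on either strand was present in the 100 bases before the start of 619 of 32851 mouse promoters (1.88%), and in 2 of the 7 member promoters searched (Mmp3, Mmp11, Mmp13, Mmp14, Timp1, Timp2 and Timp3). ACGTG, the core of the sites that hypoxia-inducible factors are known to bind, was present on either strand in the same stretch of the Mmp14 and Timp1 promoters, and in 8.09% of all promoters. Both searches describe letters only. Mmp2, Mmp9 and Mmp19 had no entry.

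On GRCm38, Mmp3 spans chr9:7445822-7455975, Mmp13 chr9:7272514-7283331, Mmp2 chr8:92827291-92853420, Mmp9 chr2:164940780-164955850 and Mmp14 chr14:54431612-54445364, all on the plus strand and with no other annotated gene overlapping them. The other 5 members share their position with another gene. Mmp11 (chr10:75923222-75936496) overlaps Chchd10, Mmp19 (chr10:128790910-128800824) overlaps Tmem198b and Gm47093, Timp1 (chrX:20870166-20874735) overlaps Syn1, and Timp3 (chr10:86300372-86349506) overlaps Syn3, in each case on the opposite strand. Timp2 (chr11:118301069-118355740) shares its strand with Cep295nl. The strand setting of the counting was not stated, so reads of a member and of its overlapping partner may not have been separated. Chchd10 exceeded Mmp11 in every library (11.3 to 25.5 beside 3.75 to 11.7 CPM, counts put on one library size), and Syn1 (0.733 to 1.96 CPM) exceeded Timp1 in sEV CTRL 2 (43 beside 33 counts). The other partners were below their members in every library: Tmem198b ranged from 6.89 to 9.49 CPM, Cep295nl from 0.482 to 1.01, Syn3 from 0.133 to 0.732 and Gm47093 from 0 to 0.142 (3 counts at most).

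Total counts per library ranged from 18194996 to 24622569. All 10 members passed the filter on low counts and were among the 17858 genes tested. Markers of several cell types differed between single glands and, for some, between the groups. Summed CPM of 8 skeletal muscle markers ranged from 9.97 in sEV NORM 2 to 11602 in sEV HYP 2, 5 B cell markers ranged from 635 to 2148, 9 neutrophil markers ranged from 32.0 to 191 with the highest value in sEV NORM 2, and 7 skin markers lay between 9.30 and 14.3 except for 82.1 in sEV NORM 3. In sEV HYP against sEV NORM, all 8 muscle markers were higher (median log2 fold change 2.49, 7 of 8 with no overlap, where 12.3% of all genes were higher with none) and all 5 B cell markers lower (median -0.52), and 0 of these 13 passed the unadjusted threshold. Markers of the mammary epithelium were present in every library, with sums of 415 to 730 CPM for 8 luminal and 267 to 467 CPM for 7 basal genes. Most of the basal sum was Acta2 (162 to 315 CPM), while Krt5 was 6.65 to 13.8 CPM and Krt14 3.85 to 7.85 CPM. Also present in every library were markers of white fat (4723 to 9201 CPM for 6 genes), fibroblasts (2290 to 4221 CPM for 8 genes), macrophages (1206 to 1781 CPM for 8 genes) and endothelium (521 to 703 CPM for 6 genes).

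To place the members beside each other, counts were divided by the length of each gene's merged exons and scaled to the same sum in each library (level per length). The inhibitors Timp2 and Timp3 and the protease Mmp3 led this order, and Mmp13 closed it. Timp2, which inhibits Mmp2 and also helps to activate it at the cell surface, had a mean level per length of 256 ± 66.7 (SD, n = 8 libraries) and was first in all 8 libraries, or in 7 of 8 with the length of the longest transcript, where Timp3 led in sEV HYP 2 (237 beside 225). Timp3, an inhibitor that stays bound to the matrix, had 125 ± 45.6. Mmp3 (stromelysin-1), a stromal protease with many substrates that also activates other metalloproteinases, had 108 ± 40.9.

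Ranges of Timp3 and Mmp3 overlapped, and Mmp3 stood above Timp3 in sEV NORM 1 and sEV HYP 1. With the longest transcript as length, Timp3 stood above Mmp3 in those libraries too (178 beside 159 and 108 beside 92.5). Mmp2 (gelatinase A), which cuts collagen IV and denatured collagen, followed with 46.7 ± 13.9, and its highest library (67.2) lay just under the lowest of Mmp3 (67.4), while these ranges overlapped with the longest transcript as length (60.3 and 55.4). Mmp19, a protease of basement membrane components, had a level per length of 21.7 ± 4.22. Mmp14, the membrane-anchored enzyme that activates Mmp2, had 12.2 ± 1.83, and stood below Mmp19 in each of the 8 libraries although the ranges met. That order depended on the length used: with the longest transcript as length, both means were 18.4 and Mmp14 stood above Mmp19 in 5 of 8 libraries.

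Timp1, Mmp11 and Mmp9 came next and were not separated by their spread. Timp1, a secreted inhibitor that binds Mmp9 in particular, had a level per length of 8.24 ± 4.75. Mmp11 (stromelysin-3), a protease of stromal fibroblasts that is released already active, had 6.96 ± 2.31, and Mmp9 (gelatinase B), which is typical of neutrophils and macrophages, had 6.50 ± 1.79. Mmp13 (collagenase-3), the main interstitial collagenase of mice, had 1.35 ± 0.816 and was last in all 8 libraries, on 12 to 87 counts per library.

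**Figure D1:**
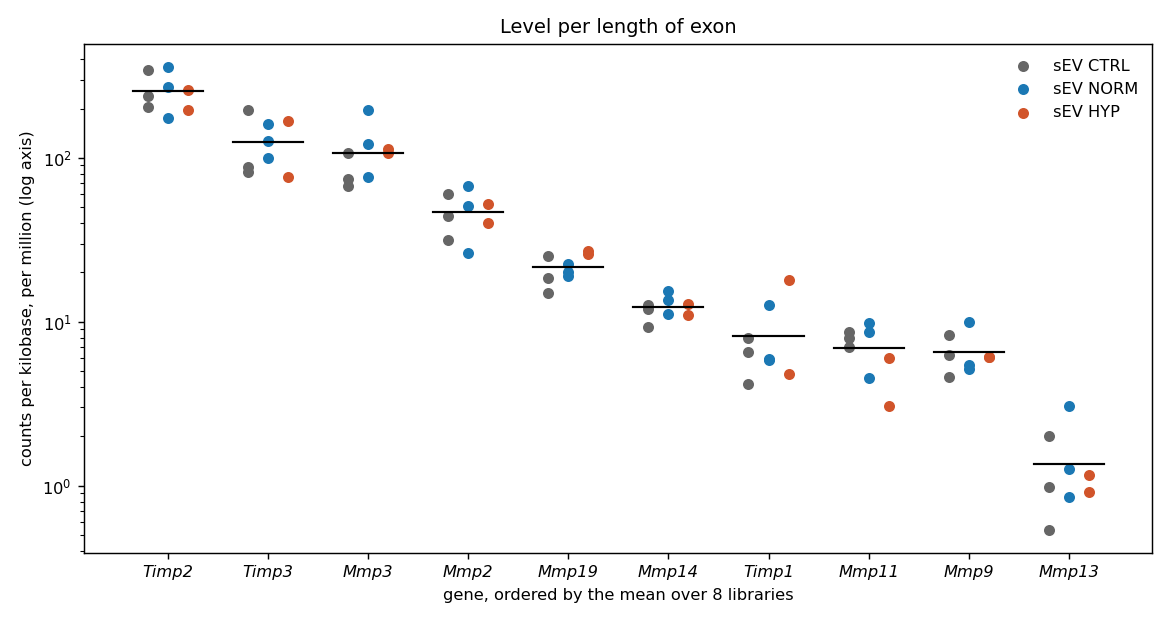
Level per length (counts per kilobase of merged exons, scaled to the same sum in each library, log axis) of the 10 members, ordered by their mean. Each point is a library (grey sEV CTRL, blue sEV NORM, orange sEV HYP) and each line the mean of 8 libraries; Timp2 leads at 256, Mmp13 is last at 1.35, and Timp1, Mmp11 and Mmp9 lie together between 6.50 and 8.24.

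Inhibitor RNA exceeded protease RNA in every library. The summed level per length of the 7 proteases, divided by that of the 3 inhibitors, was 0.484, 0.402 and 0.492 in the sEV CTRL glands, 0.737, 0.509 and 0.459 in the sEV NORM glands, and 0.697 and 0.487 in the sEV HYP glands. The 2 highest ratios came from sEV NORM 1 and sEV HYP 1, also with the longest transcript as length (0.626 and 0.617), and the 3 groups overlapped. Mmp3 alone made up 41.6% to 64.5% of the summed protease level per length, and Timp2 with Timp3 made up 93.8% to 99.2% of the inhibitor level.

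Mmp2 relative to Timp2 varied little. Its ratio of levels per length was 0.156, 0.176 and 0.185 for sEV CTRL, 0.188, 0.149 and 0.188 for sEV NORM, and 0.206 and 0.201 for sEV HYP. Both sEV HYP glands had a higher ratio than the other 6, by a margin of 0.201 against 0.188 for the nearest pair, and this ratio was not tested. Mmp9 relative to Timp1 ranged from 0.337 in sEV HYP 1 to 2.00 in sEV CTRL 2, and the 2 sEV HYP glands (0.337 and 1.26) spanned all 3 values of sEV NORM.

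**Figure D2:**
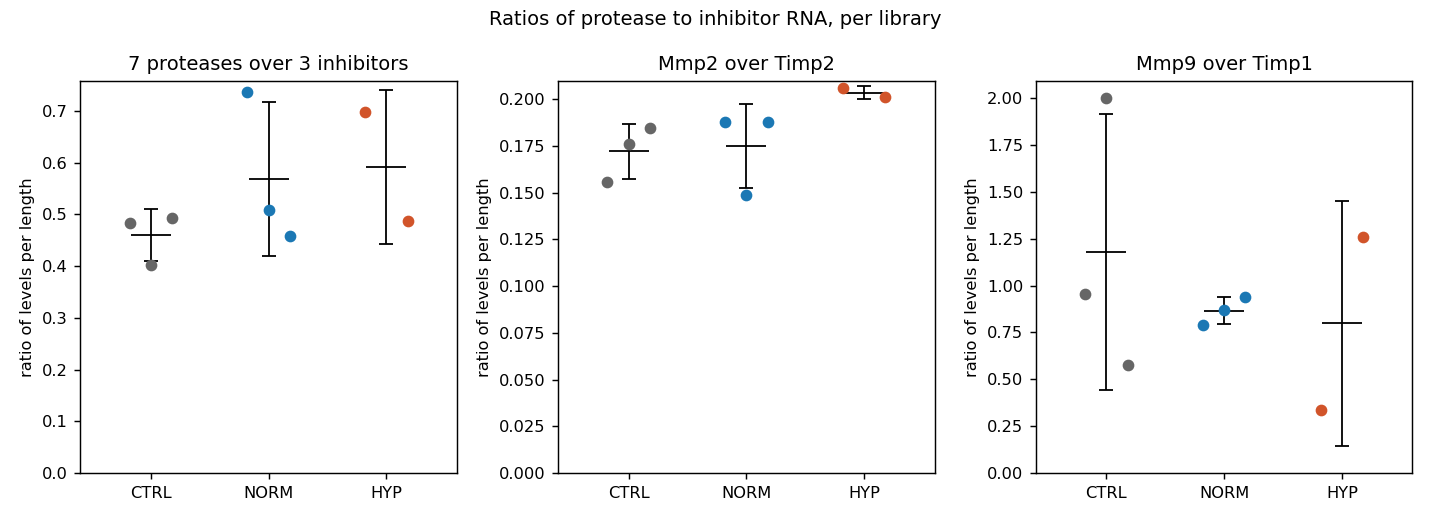
Ratios of levels per length, from left to right for the 7 proteases over the 3 inhibitors, Mmp2 over Timp2, and Mmp9 over Timp1. Points are libraries, long bars are group means and whiskers 1 SD (n = 3, 3 and 2); the Mmp2 to Timp2 ratio of the sEV HYP glands (0.201 and 0.206) lies above all others.

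In edgeR's two-sided quasi-likelihood test on all 8 libraries, no member passed in any of the 3 comparisons. The threshold was that of the study, an unadjusted P of 0.05. Against sEV NORM, 0 of 10 members passed with sEV HYP, where 706 of all 17858 genes tested did (3.95%). Against sEV CTRL, 0 of 10 passed with sEV HYP, where 438 genes did (2.45%), and 0 of 10 passed with sEV NORM, where 290 genes did (1.62%). All 3 shares lie under the 5% that a threshold of 0.05 lets through by itself. After Benjamini-Hochberg adjustment in this edgeR fit, 0 genes of the whole table passed in any comparison, and every member had an adjusted P of 1.00. DESeq2 on only the groups compared placed some genes, but no member, past an adjusted P of 0.05 in each comparison. DESeq2 on all 8 libraries placed 0, 1 and 1 members past the unadjusted threshold in the same order of comparisons, namely Mmp11 for sEV HYP against sEV CTRL and Mmp3 for sEV NORM against sEV CTRL. The study used DESeq2 between pairs of groups. DESeq2 on only the groups compared placed Mmp19 past the unadjusted threshold for sEV HYP against sEV NORM. It placed Mmp11 past it for sEV HYP against sEV CTRL, and no member for sEV NORM against sEV CTRL.

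The median log2 fold change of the 10 members was -0.12 for sEV HYP against sEV NORM, 0.03 for sEV HYP against sEV CTRL and 0.06 for sEV NORM against sEV CTRL, beside medians of -0.02, -0.02 and -0.00 over all genes tested. The comparisons share libraries, so they are not independent of each other. Each p-value sets a difference against the spread between these few glands, estimated over all groups together and partly from other genes. A simulated difference of log2 fold 1 passed the unadjusted threshold for 67.7% of genes with these group sizes in sEV HYP against sEV NORM. That share is over genes drawn at random. The SE of the members in this comparison ran from 0.19 (Mmp14) to 0.66 (Mmp13), so the share need not hold for each member.

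**Figure D3:**
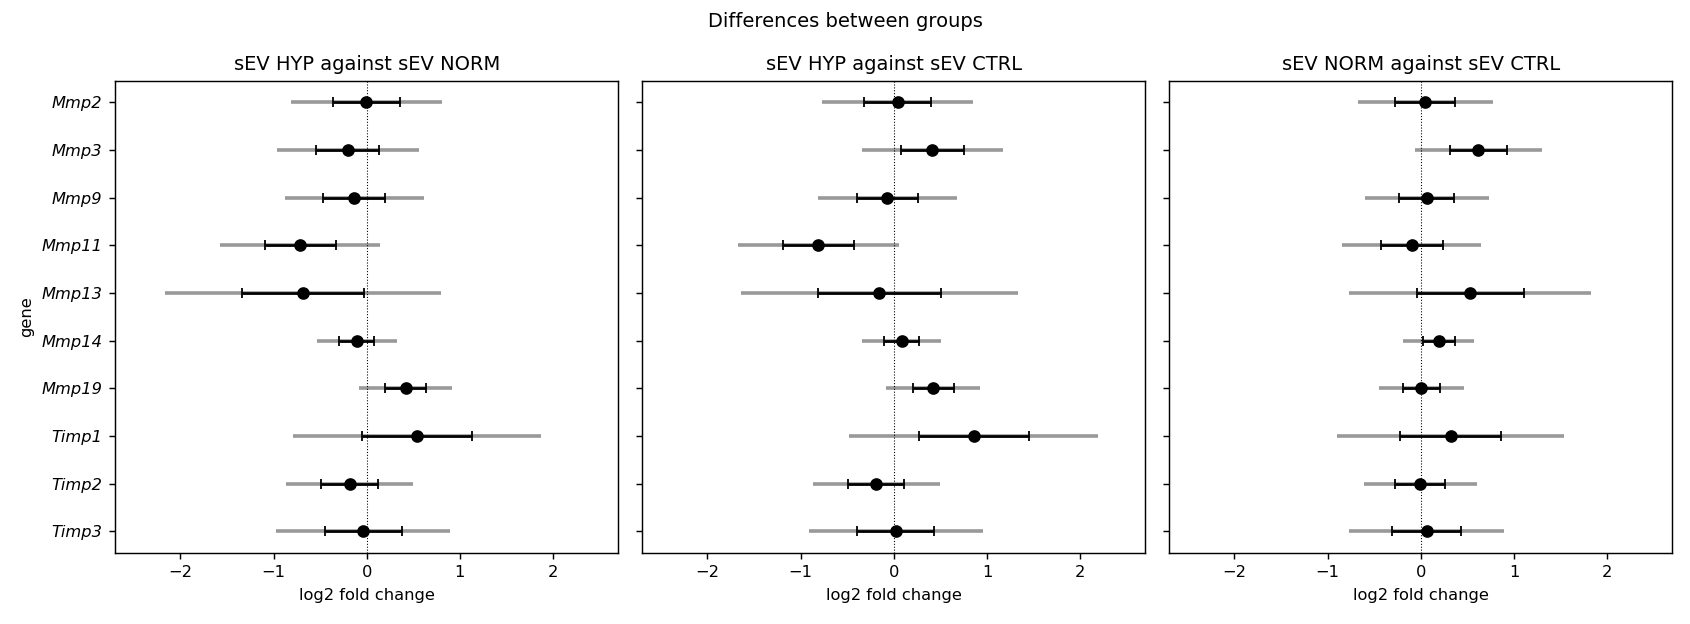
Log2 fold change of each member in the 3 comparisons from the model of all 8 libraries. Points are estimates, capped black bars 1 SE and grey lines 95% intervals; every interval includes 0, and Mmp11, Mmp19 and, for sEV NORM against sEV CTRL, Mmp3 come nearest to leaving it.

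Among the proteases with the largest differences, Mmp11 was lowest on average in the sEV HYP glands. It was measured at 8.98, 9.84 and 10.1 CPM in sEV CTRL, 11.7, 5.36 and 10.1 in sEV NORM, and 3.75 and 7.28 in sEV HYP. Both sEV HYP values lay below all sEV CTRL values but overlapped sEV NORM, because sEV NORM 2 was at 5.36. The log2 fold change was -0.81 (SE 0.38, 95% interval -1.67 to 0.05) against sEV CTRL and -0.71 (SE 0.38, 95% interval -1.57 to 0.14) against sEV NORM. Both differences passed the unadjusted threshold without sEV NORM 2 (-0.81 and -0.98). Without sEV HYP 2 they were -1.37 and -1.28, where the lone sEV HYP gland was assumed to vary like the other groups. Over all fits that left out a single library, the difference ranged from -1.37 to -0.40 against sEV CTRL. Against sEV NORM it ranged from -1.28 to -0.31. Chchd10, which overlaps Mmp11 on the other strand and acts in mitochondria, rose in sEV HYP against sEV NORM (log2 fold change 0.75, SE 0.28, past the unadjusted threshold), with 25.5 and 18.1 CPM beside 11.3 to 14.7 CPM. Against sEV CTRL it overlapped (13.0 to 24.0 CPM) and did not pass (log2 fold change 0.31, SE 0.28).

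Mmp19 was highest on average in the sEV HYP glands. Its level was 24.6, 26.8 and 40.7 CPM in sEV CTRL, 30.2, 28.8 and 33.4 in sEV NORM, and 40.1 and 42.2 in sEV HYP. Both sEV HYP glands lay above all sEV NORM glands, and sEV CTRL 3 reached the sEV HYP range. On the log2 scale it differed by 0.42 from sEV NORM (SE 0.22, 95% interval -0.08 to 0.92) and by 0.42 from sEV CTRL (SE 0.22, 95% interval -0.08 to 0.93). Without sEV CTRL 3 these became 0.42 and 0.68, and both passed the unadjusted threshold. Over all fits that left out a single library, the difference ranged from 0.37 to 0.48 against sEV NORM. Against sEV CTRL it ranged from 0.28 to 0.68. Mmp19 was the 1 member of 10 whose groups did not overlap for sEV HYP against sEV NORM, where 22.8% of all genes tested had no overlap (12.3% with sEV HYP higher). Summed muscle markers were 4170 and 11602 CPM in these sEV HYP glands and 9.97 to 2669 CPM in sEV NORM. Summed basal markers were 467 and 448 beside 286 to 374 CPM, and summed B cell markers 1348 and 635 beside 874 to 2148 CPM. The basal sum was mostly Acta2 (315 and 299 beside 162 to 264 CPM). Krt17 and Cnn1 were also higher than in sEV NORM, while Krt5, Krt14, Trp63 and Oxtr overlapped it. The part of these cell markers in the Mmp19 difference was not tested.

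For sEV HYP against sEV CTRL, 2 of 10 members had no overlap, Mmp11 (lower) and Mmp3 (higher), where 12.8% of all genes did (6.7% higher and 6.08% lower). For sEV NORM against sEV CTRL, 0 of 10 did, where 4.85% of all genes did.

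Mmp3 was higher in most glands exposed to tumor cell vesicles than in controls, without passing the test. It measured 61.7, 78.9 and 55.3 CPM in sEV CTRL, 150.4, 58.7 and 91.5 in sEV NORM, and 89.6 and 84.6 in sEV HYP. Every sEV HYP value lay above every sEV CTRL value, whereas sEV NORM held both the highest library and one within the control range. Its log2 fold change was 0.42 (SE 0.33) for sEV HYP against sEV CTRL, 0.62 (SE 0.30, 95% interval -0.07 to 1.30) for sEV NORM against sEV CTRL and -0.20 (SE 0.34) for sEV HYP against sEV NORM. Without sEV NORM 2, the difference of sEV NORM from sEV CTRL was 0.89 and passed the unadjusted threshold. Over all fits that left out a single library, this difference ranged from 0.20 to 0.89. Without sEV NORM 1, the highest library, the sEV HYP difference from sEV NORM changed its sign to 0.21.

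Mmp9 RNA was nearly the same in the 2 sEV HYP glands and in the middle of the other values. It was 10.3, 11.99 and 7.44 CPM in sEV CTRL, 15.1, 7.84 and 8.13 in sEV NORM, and 9.48 and 9.42 in sEV HYP. The groups overlapped, and sEV NORM 1 was the highest. The log2 fold change was -0.13 (95% interval -0.88 to 0.62) against sEV NORM and -0.07 (95% interval -0.82 to 0.68) against sEV CTRL, so that changes of the whole gland within these limits could not be told from 0. Luminal cells sorted from such glands, in which the study examined MMP-9 protein, were not analysed here.

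Mmp13 was the lowest and most variable member. Its level was 1.22, 2.19 and 0.656 CPM in sEV CTRL, 3.50, 0.975 and 1.42 in sEV NORM, and 1.37 and 1.07 in sEV HYP. Its highest gland, sEV NORM 1, held 5.70 times the level per length of its lowest, sEV CTRL 3, and the groups overlapped. Its log2 fold change of sEV HYP against sEV NORM was -0.68 with a 95% interval of -2.17 to 0.80, the widest of the 10 members in that comparison.

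Mmp2 and Mmp14, which act together at the cell surface, had no difference between the groups past the threshold. Mmp2 was 49.5, 82.7 and 67.8 CPM in sEV CTRL, 73.5, 37.6 and 95.4 in sEV NORM, and 59.8 and 77.6 in sEV HYP. Its lowest and highest values both came from sEV NORM, and the means of the 3 groups were 66.7, 68.8 and 68.7 CPM. The 95% interval of its log2 fold change was -0.81 to 0.81 for sEV HYP against sEV NORM and -0.77 to 0.85 against sEV CTRL. Changes within these limits could not be told from 0. Mmp14 was the steadiest member, with 25.7, 30.8 and 32.3 CPM in sEV CTRL, 34.6, 28.4 and 38.5 in sEV NORM, and 33.8 and 28.9 in sEV HYP. Its groups overlapped, and the log2 fold change of sEV HYP against sEV NORM was -0.11 with a 95% interval of -0.54 to 0.32.

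Among the inhibitors, Timp1 varied most and Timp2 least. Timp1 was 2.69, 1.50 and 3.23 CPM in sEV CTRL, 4.78, 2.26 and 2.17 in sEV NORM, and 7.05 and 1.87 in sEV HYP, on 33 to 154 counts. One sEV HYP gland was thus the highest of all 8 and the other the second lowest. The log2 fold change of sEV HYP against sEV CTRL was 0.86 (SE 0.59, 95% interval -0.48 to 2.19). It was 1.50 and past the unadjusted threshold without sEV HYP 2, and -0.39 without sEV HYP 1.

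Timp2 was 368, 543 and 424 CPM in sEV CTRL, 452, 292 and 587 in sEV NORM, and 336 and 446 in sEV HYP. Its 3 groups overlapped, and sEV NORM held both the lowest and the highest gland. Timp3 was 329.5, 652 and 304 CPM in sEV CTRL, 440.3, 347 and 554 in sEV NORM, and 273 and 597 in sEV HYP. Here the 2 sEV HYP glands lay near the opposite ends of the range, and the log2 fold change was -0.04 (95% interval -0.97 to 0.89) against sEV NORM and 0.02 (95% interval -0.91 to 0.95) against sEV CTRL.

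**Figure D4:**
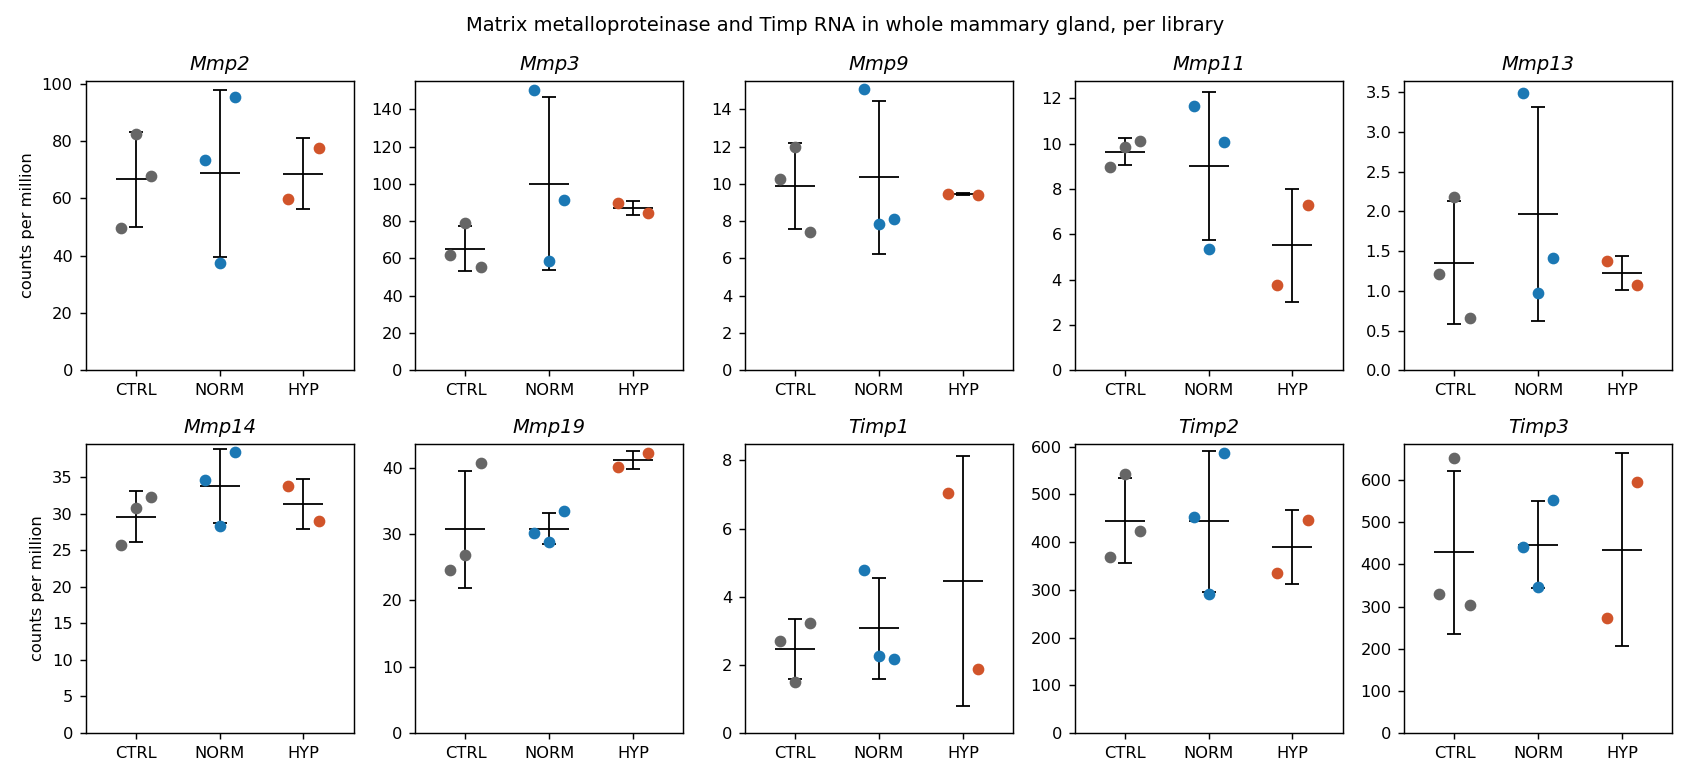
CPM of each member by library in the sEV CTRL (grey), sEV NORM (blue) and sEV HYP (orange) glands, with each vertical axis starting at 0. Long bars are group means and whiskers 1 SD (n = 3, 3 and 2); Mmp19 at 40.1 and 42.2 and Mmp11 at 3.75 and 7.28 place the sEV HYP glands above all sEV NORM and below all sEV CTRL glands, respectively, and sEV NORM 1 is the highest library for Mmp3, Mmp9, Mmp11 and Mmp13.

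Across the 8 libraries, members moved in pairs that cut across the groups. Of 45 pairs, Mmp2 and Timp2 had the highest correlation of log2 CPM (Pearson r = 0.937, exact permutation P = 0.000570, adjusted P = 0.0257 over 45 pairs; Spearman rho = 0.952, exact P = 0.00114, adjusted P = 0.0513). It was 0.968 without the 2 libraries farthest from the median of Mmp2 and 0.936 without sEV NORM 1, where the adjusted P was 0.0848 (exact permutation, n = 7) and no longer passed. Glands rich in one were rich in the other within sEV CTRL, sEV NORM and sEV HYP alike, as the order of their values shows, but groups of 3 and 2 libraries were too small for a value within each.

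Mmp2 also followed the summed fibroblast markers (r = 0.943, exact permutation P = 7.44e-05, adjusted P = 0.00744 over 100 pairs of a member and a marker list; rho = 0.976, exact P = 0.000397, adjusted P = 0.0397). Without its 2 farthest libraries r was 0.918, and without sEV NORM 1 the adjusted P was 0.0595 (exact permutation, r = 0.945, n = 7). Timp2 had r = 0.925 with the same markers (exact P = 0.00156, adjusted P = 0.0781; rho = 0.905, exact P = 0.00456, adjusted P = 0.114), and 0.843 without the 2 farthest libraries. Timp3 had r = 0.857 (exact P = 0.0134, adjusted P = 0.310; rho = 0.690, exact P = 0.0694, adjusted P = 0.523), and 0.764 without the 2 farthest. The fibroblast marker sum ranged from 2290 CPM in sEV NORM 2 to 4221 CPM in sEV NORM 3, the glands with the lowest and highest Mmp2 and Timp2. Most of that sum was Dcn (1451 and 2791 CPM in these glands). Dpt, Fbln1, Pi16 and Mfap5 were also lowest and highest there, Pdgfra only highest, and Lum neither. Thy1 ran otherwise, lowest in sEV CTRL 2 (43.7 CPM) and highest in sEV HYP 1 (77.0 CPM), where Mmp2 was 82.7 and 59.8 CPM. Single markers were not tested. Mmp2 ran opposite to the summed B cell markers (r = -0.863, exact P = 0.00543, adjusted P = 0.181; rho = -0.905, exact P = 0.00456, adjusted P = 0.114), at r = -0.563 without its 2 farthest libraries, sEV CTRL 1 and sEV NORM 2. Its relations to neutrophil markers (r = -0.791, exact P = 0.0198, adjusted P = 0.328; rho = -0.738, exact P = 0.0458, adjusted P = 0.523) and muscle markers (r = 0.791, exact P = 0.0229, adjusted P = 0.328; rho = 0.548, exact P = 0.171, adjusted P = 0.534) rest on those 2 libraries, with r of -0.348 and -0.170 without them. Whether the share of fibroblasts or of the other cells set these levels was not tested. Each CPM is a share of its library, so these values also share the library's scaling.

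Mmp9 and Mmp13 formed the other pair past the adjustment (r = 0.918, exact permutation P = 0.00169, adjusted P = 0.0380; rho = 0.833, exact P = 0.0154, adjusted P = 0.231). The relation was weaker without sEV CTRL 3 and sEV NORM 1 (r = 0.727), and without sEV NORM 1 alone its adjusted P was 0.390 (exact permutation, r = 0.812, n = 7). Mmp3 and Mmp13, the pair that shares TGAGTCA in the promoters shown above, had r = 0.851 (exact P = 0.00940, adjusted P = 0.141; rho = 0.810, exact P = 0.0218, adjusted P = 0.245). This fell to r = 0.403 without sEV CTRL 3 and sEV NORM 1, so it rests on those libraries, as does Mmp3 with Mmp9 (r = 0.742, exact P = 0.0361, adjusted P = 0.309; rho = 0.571, exact P = 0.151, adjusted P = 0.520), at r = 0.0819 without the same libraries. Timp1 and Timp3 ran in opposite directions (r = -0.712, exact P = 0.0480, adjusted P = 0.309; rho = -0.857, exact P = 0.0107, adjusted P = 0.231). Their r was -0.898 without sEV NORM 1 and sEV HYP 1, and -0.816 without sEV NORM 1 alone (exact permutation, adjusted P = 0.0848, n = 7).

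**Figure D5:**
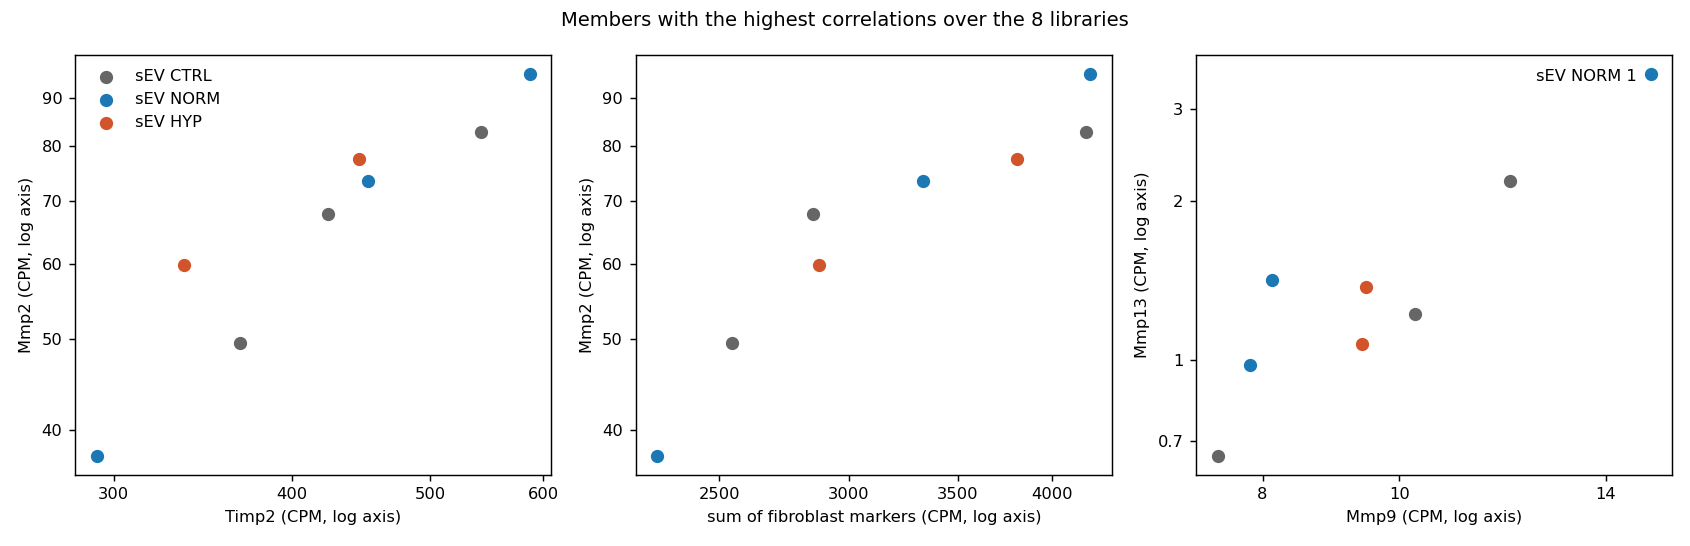
Mmp2 against Timp2, Mmp2 against the sum of 8 fibroblast markers, and Mmp13 against Mmp9, all in CPM on log axes. Each point is a library, colored by group; the first 2 panels form a line through all groups (r = 0.937 and 0.943), and sEV NORM 1 stands at the upper end of the last (r = 0.918 with it, 0.812 without it).

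The genes whose pattern over the 8 libraries was most like a member's were sought among 15224 genes and are given as a description. For Mmp3 they were Ccl9 (r = 0.963), Ccl6 (r = 0.953) and Mal2 (r = 0.951), the first 2 being chemokines of the CC family. For Mmp2 they were Sept8, Arhgap10 and Abca6 (r = 0.971 to 0.979), for Timp2 Sult5a1, Emx2os and Gm10297 (r = 0.979 to 0.980), and for Timp3 Wwtr1, Zfp799 and Myo6 (r = 0.974 to 0.982). Mmp9 was most like Med28, Nme5 and Mmp13 (r = 0.918 to 0.946), and Mmp13 most like Mark1, Nme5 and Trim30c (r = 0.951 to 0.977), so that both had Nme5 among their nearest genes. Mmp11 was nearest to Usp35, Hmcn2 and Map2k5 (r = 0.963 to 0.981), Mmp14 to Cyfip1, Bspry and Nrcam (r = 0.935 to 0.942), Mmp19 to Ptdss1, Hic1 and Jazf1 (r = 0.942 to 0.943), and Timp1 to Krtcap3, Rpl36-ps12 and Bcl3 (r = 0.926 to 0.935).

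Other metalloproteinases were mostly lower than the members. Of 16 listed, 9 were tested, and Mmp23 and Mmp15 had the highest mean levels per length (6.09 and 5.39), close to Mmp9. Mmp12, the macrophage elastase, was the 1 gene of this list past the unadjusted threshold: it fell in sEV HYP against sEV CTRL (log2 fold change -1.38, SE 0.51), with 3.70, 10.9 and 12.1 CPM in sEV CTRL, 4.94, 3.81 and 5.20 in sEV NORM, and 2.29 and 4.55 in sEV HYP. The groups overlapped through sEV CTRL 1, and the call was lost without sEV CTRL 2 (log2 fold change -1.21), sEV CTRL 3 (-1.10) or sEV HYP 1 (-0.96). Summed macrophage markers were 1206 CPM in sEV HYP 2 and 1520 to 1781 CPM in the others. Most of that sum was Lyz2 (679 CPM in sEV HYP 2 beside 897 to 1275 CPM). Csf1r and Cd68 were also lowest in sEV HYP 2, while Adgre1, Mrc1, C1qa, C1qb and Cd163 were not. The part of macrophages in the Mmp12 difference was not tested.

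Mmp8, the neutrophil collagenase, is named here after its values were seen. It was 1.73, 5.80 and 1.89 CPM in sEV NORM and 0.732 and 0.642 CPM in sEV HYP, with no overlap (log2 fold change -2.18, SE 0.98, not past the threshold). The highest gland, sEV NORM 2, was also the one with the highest neutrophil marker sum (191 CPM), and 5 of 9 neutrophil markers fell in the same comparison, where 1.7% of all genes did, while 0 rose. Ltf, another of the 9, was higher in sEV HYP with no overlap (34.0 and 29.7 CPM beside 21.6 to 28.3) and did not pass. The part of neutrophils in the Mmp8 difference was not tested. Mmp1b, Mmp21 and Mmp24 had 0 counts in all 8 libraries, and a count of 0 allows up to 3 counts in a library, counting error only.

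Other inhibitors included Timp4, which fat tissue is known to express. Its mean level per length of 48.3 (18.1 to 95.3) would place it between Mmp3 and Mmp2, and its log2 fold change of sEV HYP against sEV CTRL was -0.97 (SE 0.64) and did not pass the test. Reck, a membrane-anchored inhibitor, had a mean level per length of 15.8. Of the 4 listed inhibitors, 0 passed the unadjusted threshold in any comparison. Of 10 genes of activation and the plasmin system, 9 were tested and 0 passed in any comparison. Bsg (basigin, an inducer of metalloproteinases) and Plau (urokinase) led that list with mean levels per length of 229 and 36.8.

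Of 14 ADAM and ADAMTS proteases, which are related metalloproteinases that shed cell surface proteins or cut proteoglycans, 14 were tested, and Adam10 and Adam9 had the highest mean levels per length (98.0 and 88.9). Adam12, whose product sheds growth factors, rose in sEV NORM against sEV CTRL (log2 fold change 0.43, SE 0.15) and in sEV HYP against sEV CTRL (0.38, SE 0.17), both past the unadjusted threshold. It was 53.7, 54.0 and 63.5 CPM in sEV CTRL, 72.2, 89.7 and 69.3 in sEV NORM, and 70.9 and 77.9 in sEV HYP, so that all 5 glands exposed to tumor cell vesicles lay above all 3 controls. The first call was lost without sEV CTRL 1 (0.37) or sEV NORM 2 (0.31), and the second without sEV CTRL 1, sEV CTRL 2, sEV NORM 1, sEV NORM 3, sEV HYP 1 or sEV HYP 2 (0.30 to 0.45). The second was also lost under 6 of 7 other settings on unchanged libraries (0.37 to 0.39), and was kept there with the filter of at least 10 counts in every library (0.38), so that 12 of 15 alternatives ended it.

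Of 12 matrix substrates, 12 were tested, and Col3a1 and Nid1 had the highest mean levels per length (308 and 202). In sEV HYP, 3 rose against sEV CTRL (1.39% of all genes did) and 2 rose against sEV NORM (2.25% of all genes did), and 0 fell. The list was chosen with earlier results of these data known, so these counts are a description only. Vcan (versican, a large proteoglycan that ADAMTS enzymes cut) rose in both, and was 28.0, 23.8 and 26.2 CPM in sEV CTRL, 34.3, 31.1 and 32.3 in sEV NORM, and 52.4 and 37.8 in sEV HYP. Its 3 groups did not overlap, and its log2 fold change was 0.80 (SE 0.18) against sEV CTRL and 0.47 (SE 0.18) against sEV NORM. The first passed the unadjusted threshold also under each of 7 other settings and without any one of the 8 libraries (0.54 to 1.00). The second call was lost without sEV NORM 2 (0.44), sEV NORM 3 (0.46) or sEV HYP 1 (0.22).

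Col5a1, a chain of the fibril-forming collagen V, was 65.1, 83.7 and 79.5 CPM in sEV CTRL, 70.3, 69.0 and 81.1 in sEV NORM, and 91.3 and 107 in sEV HYP. The sEV HYP glands lay above all others, and it rose by 0.38 (SE 0.17) on the log2 scale against sEV CTRL and by 0.43 (SE 0.17) against sEV NORM. Col3a1, the chain of collagen III, rose in sEV HYP against sEV CTRL (log2 fold change 0.62, SE 0.24), with 1652 and 1698 CPM beside 938 to 1392 CPM. The Col3a1 call was lost without sEV CTRL 1, sEV CTRL 3, sEV HYP 1 or sEV HYP 2 (0.52 to 0.64) and with edgeR on the groups compared alone (0.62). For Col5a1, the call against sEV NORM was lost without sEV NORM 1, sEV NORM 2 or sEV HYP 2 (0.31 to 0.40), and the call against sEV CTRL was lost without any one library other than sEV CTRL 2 (0.25 to 0.50) and under 5 of 7 other settings (0.38 to 0.39), 12 of 15 alternatives in all. Summed basal markers were higher in both sEV HYP glands (467 and 448 CPM) than in the other 6 (267 to 411 CPM). Most of that sum was Acta2 (315 and 299 beside 162 to 274 CPM), and Krt17 and Cnn1 were higher there too. Krt5 (9.06 and 10.6 beside 6.65 to 13.8 CPM), Krt14 (4.35 and 5.19 beside 3.85 to 7.85 CPM), Trp63 and Oxtr overlapped the other glands. Summed muscle markers were higher in sEV HYP than in sEV NORM but overlapped sEV CTRL (610 to 7782 CPM). The part of basal and muscle markers in the Vcan, Col5a1 and Col3a1 differences was not tested. None of the genes named from these lists passed an adjusted P of 0.05.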

How the data were processed

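RNA from whole mammary glands was sequenced in 8 libraries, grouped by their labels. The authors aligned reads with STAR to mm10 (GRCm38), per the labels, and estimated counts per gene with RSEM 1.2.12. The deposited table holds unnormalized whole-number counts, and how the estimates became whole numbers was not stated. Members, lists and tests were chosen with earlier results of these data known. Symbols, positions and exon lengths came from GENCODE (GRCm38), and 51596 of 51789 genes had them.

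All 3 groups entered a single fit in edgeR 4.0.16 in R 4.3.3 (filterByExpr, minimum count 10, TMM factors 0.975 to 1.02, quasi-likelihood F-test, two-sided, 5 residual degrees of freedom). The unadjusted P of 0.05 is the study's threshold, and adjustment (Benjamini-Hochberg) ran over 17858 genes. CPM are counts scaled to a common library size with TMM, and log2 CPM used a prior count of 2. Correlations used exact permutation tests in Python 3.11. Total counts were 18194996 to 24622569. Depth covers counting error only. On simulated counts (17505 genes), 67.7% of differences of log2 fold 1 passed the unadjusted and 0% the adjusted threshold for sEV HYP against sEV NORM, and 93.4% and 64.3% did at log2 fold 2 (17502 genes). No libraries were duplicates. Alternatives were DESeq2 1.42.0 or its size factors, fits of only the groups compared, other filters, a replicate block, each library left out, another gene length, and, added after the data were seen, correlations without sEV NORM 1 and the same settings for the called genes of other lists. Named were all members, of the 5 other lists the genes past the threshold and the 2 highest per length, and the 3 genes most like each member.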

Additional observations from a re-analysis of the deposited data

How the results depend on the processing

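No member passed an adjusted P of 0.05 under any setting (lowest 0.533, edgeR or DESeq2). Of 210 member values under 7 other settings, 191 kept direction and side of the threshold, 10 newly passed the unadjusted threshold and 9 changed sign, and without 1 library the numbers were 191, 8 and 41 of 240. Values near 0 changed sign: Mmp2 for sEV HYP against sEV NORM was 0.00085 with DESeq2 size factors, 0.0021 with DESeq2 on all libraries, 0.0024 on the groups compared and 0.16 with the replicate block, Mmp19 for sEV NORM against sEV CTRL was -0.0030, -0.0024 and -0.0064 in the first 3 of these and -0.0074 with edgeR on the groups compared, and Timp3 for sEV HYP against sEV CTRL was -0.028 with the block.

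The members past the threshold became 1 for sEV HYP against sEV NORM (Mmp19, in DESeq2 or edgeR on the groups compared and with the replicate block), 1 for sEV HYP against sEV CTRL (Mmp11 in both DESeq2 fits, edgeR on the groups compared and no filter, Mmp19 with the block) and 1 for sEV NORM against sEV CTRL (Mmp3, DESeq2 on all libraries and no filter). Without 1 library they were 0 to 1, 0 to 2 and 0 to 1. All genes past the threshold became 1195 (DESeq2 on the groups compared) and 1102 (no filter) for sEV HYP against sEV NORM, 672 for sEV HYP against sEV CTRL and 533 for sEV NORM against sEV CTRL (both no filter), and 415 to 986, 341 to 1472 and 222 to 1018 without 1 library, with 415 lacking sEV HYP 2, 1472 and 1018 lacking sEV CTRL 2 and 568 lacking sEV CTRL 1. DESeq2 on the groups compared placed 83, 14 and 3 genes past an adjusted P of 0.05. The cause was not tested.

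Without 1 library, the log2 fold changes that changed sign ranged, for sEV HYP against sEV NORM, from -0.30 to 0.31 (Mmp2), -0.47 to 0.21 (Mmp3), -0.30 to 0.24 (Mmp9), -1.01 to 0.034 (Mmp13), -0.71 to 1.19 (Timp1), -0.41 to 0.071 (Timp2) and -0.72 to 0.42 (Timp3). For sEV HYP against sEV CTRL they ranged from -0.17 to 0.23 (Mmp2), -0.24 to 0.10 (Mmp9), -0.48 to 0.38 (Mmp13), -0.029 to 0.18 (Mmp14), -0.39 to 1.50 (Timp1), -0.42 to 0.0046 (Timp2) and -0.66 to 0.48 (Timp3). For sEV NORM against sEV CTRL they ranged from -0.26 to 0.34 (Mmp2), -0.31 to 0.23 (Mmp9), -0.32 to 0.17 (Mmp11), -0.19 to 1.06 (Mmp13), -0.16 to 0.26 (Mmp19), -0.15 to 0.56 (Timp1), -0.26 to 0.22 (Timp2) and -0.13 to 0.50 (Timp3).

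Deviations of same-numbered libraries from their group means correlated at -0.416 to 0.369, over 0.1 in 2 of 7 pairs. Centering in such small groups fixes part of these values (sEV HYP 1 with sEV HYP 2 is -1), so they cannot settle whether replicate numbers pair the glands. With the longest transcript as length, Mmp11 stood above Timp1 on average, the level of Mmp14 rose from 12.2 to 18.4 and equalled that of Mmp19, and the median protease to inhibitor ratio was 0.430 beside 0.490, and 0.261 with CPM in place of levels per length. Correlations of Mmp2 with Timp2 and with fibroblast markers kept r of 0.936 and 0.945 without sEV NORM 1, at adjusted P of 0.0848 and 0.0595 (exact permutation, n = 7). Depth limits Mmp13 (12 counts in its lowest library) and Timp1 (33 counts) most.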
